A study of Mus musculus with 9 samples.

Results

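The expression of 39 germline and meiotic genes was followed through the conversion of naïve mouse embryonic stem cells (mESCs) into primed epiblast stem cells (mEpiSCs). The genes were taken as a list of symbols, chosen with earlier results of these data known. All 39 were matched by symbol among the 54232 genes of the deposited count table. They comprise 7 germ cell RNA regulators and meiotic entry genes, 6 genes of the synaptonemal complex, 8 genes of the chromosome axis, cohesin and crossover, 13 genes of the piRNA pathway and transposon silencing, and 5 other testis and germ cell genes. They lie on 19 chromosomes, with 2 of them (*Tex11* and *Taf7l*) on chromosome X. Poly(A) RNA was sequenced from cells of the strain C57 x CBA, in 2 libraries each of naïve cells at P5 (passage 5), primed cells at P5, naïve cells at P15 and primed cells at P15, and in 1 library of mouse embryonic fibroblasts (MEFs). Naïve cells grew in S/L medium (serum and LIF) and primed cells in F/A medium (Fgf2 and Activin A), and all of them grew on feeder MEFs. The cells come from 1 ES cell line, which carries an Oct4-driven GFP reporter, and the primed cells were converted from it in culture rather than taken from embryos. Captions of the study call the libraries of a group biological repeats, and nothing in the labels says whether they came from separate cultures, so the p-values given here measure only the spread between these libraries.

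Germline genes serve the formation of eggs and sperm. Germ cells keep a distinct set of RNA-binding proteins, pair and recombine their chromosomes along the synaptonemal complex with the help of meiosis-specific cohesins and HORMA-domain proteins, and use PIWI proteins with small piRNAs to silence transposons. In somatic cells most of these genes are silent, many of them with methylated CpG-rich promoters, and in ES cells a Polycomb complex that holds E2F6, MGA and MAX is among the factors known to repress them. Mouse ES cells grown in serum and LIF nevertheless contain transcripts of many of them, without being germ cells.

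Total counts were between 14378051 and 20985136 in the naïve and primed libraries and 25646547 in MEFs. The 7 naïve markers (*Zfp42*, *Esrrb*, *Nr0b1*, *Klf2*, *Klf4*, *Tfcp2l1* and *Tbx3*) were all called lower in primed cells at both passages, and 6 of 7 primed markers were called higher at both. Fibroblast transcripts were present in every culture. The summed level of 24 fibroblast markers, in CPM (each library's counts scaled to a common total), was 8959 to 8973 in naïve and 5687 to 5806 in primed cells at P5, 14974 to 15684 in naïve and 14363 to 14990.1 in primed cells at P15, and 75759 in MEFs, and none of the 24 was at 0 in any library. The MEF library held little of the germline genes, with a summed level of 33.6 CPM over the 39, of which 32 were under 1 CPM and 11 had 0 counts. *Tdrkh*, *Syce2*, *Tex15*, *Brdt*, *Stag3*, *Sycp2* and *Ddx4* were the 7 at 1 CPM or more in MEFs. The part of feeder RNA in the differences below was not tested, and MEF levels are given beside the genes they concern.

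Naïve cells transcribed most of these genes, primed cells at P5 kept a reduced level of them, and primed cells at P15 held almost none of the majority. The summed level of the 39 genes was 575 and 575 CPM in the naïve libraries at P5 and 549 and 556 CPM at P15. It was 156 and 162 CPM in the primed libraries at P5 and 75.9 and 80.8 CPM at P15. The groups of the 2 states did not overlap at either passage, while naïve cells at P5 and P15 were close to each other. What was left at P15 came mainly from 4 genes. *Syce2*, *Dnd1*, *Tdrd5* and *Tdrkh* made up 12.8% to 13.1% of the sum in naïve cells at P5 and 84.3% to 85.7% in primed cells at P15. In such bulk libraries, fewer cells that express a gene cannot be told apart from less RNA in each cell.

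Calls required a difference of at least 2-fold with an adjusted p below 0.01, by edgeR's quasi-likelihood test with adjustment over all genes tested, after genes without at least 10 counts in at least 2 libraries of the comparison had been left out. Of the 39 genes, 34 passed this filter at P5 and 34 at P15. At P5, 26 were called lower in primed cells and 1 (*Brdt*) higher. Of all 16482 genes tested there, 8.85% were called lower and 13.5% higher. At P15, 29 were called lower and 1 (*Tdrkh*) higher, against 11.0% and 12.2% of all 15733 genes tested. The 26 that were lower at P5 were all lower at P15 too, and *Hormad2*, *Smc1b* and *Rec8* joined them. Many members passed the filter mainly through their naïve libraries, so these counts describe the list and are no test of it. The median log2 fold change of the 34 was -2.21 at P5 and -6.28 at P15, where the medians of all genes tested were 0.01 and 0.00. The other 5 (*Asz1*, *Sycp2*, *Tdrd9*, *Tex101* and *Tex12*) had too few counts in every comparison.

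**Figure D1:**
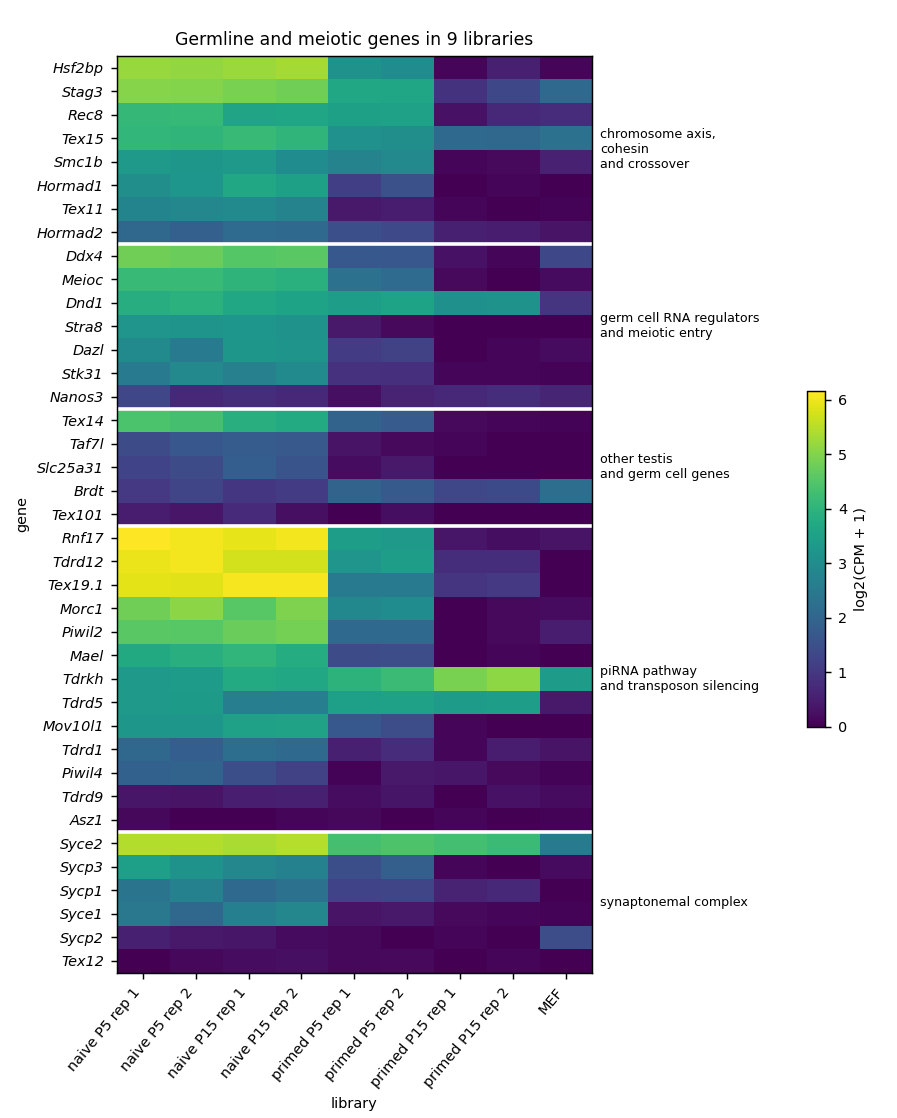
Level of the 39 genes (rows, grouped by role and ordered within a role by their mean in naïve cells at P5) in the 9 libraries (columns), coloured by log2(CPM + 1). Most rows are bright in the 4 naïve libraries, dimmer in primed cells at P5 and dark in primed cells at P15, while the rows of *Syce2*, *Dnd1*, *Tdrd5* and *Tdrkh* stay visible in all 8 naïve and primed libraries.

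The extent of the change differed among the genes, and they fell into a few descriptive classes, drawn after the values were seen. In primed cells at P5, no gene of the 34 was under 2% of its naïve level, 7 were between 2% and 10%, 16 between 10% and 30%, 4 between 30% and 50%, 4 between 50% and 100%, and 3 at or above 100%. In primed cells at P15, 21 of the 34 were under 2% of the naïve level. A further 8 lay between 2% and 50%, namely *Rec8*, *Stag3*, *Tdrd1*, *Hormad2*, *Piwil4*, *Sycp1*, *Tex15* and *Syce2*. *Dnd1*, *Nanos3*, *Brdt*, *Tdrd5* and *Tdrkh* were the remaining 5. For comparison, the naïve marker *Zfp42* was at 8.25% of its naïve level at P5 and 0.0996% at P15, and *Esrrb* at 11.1% and 0.874%. Percentages of this kind are ratios of group levels scaled for library size, and the 95% intervals given with them are exact binomial intervals that cover counting error only.

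**Figure D2:**
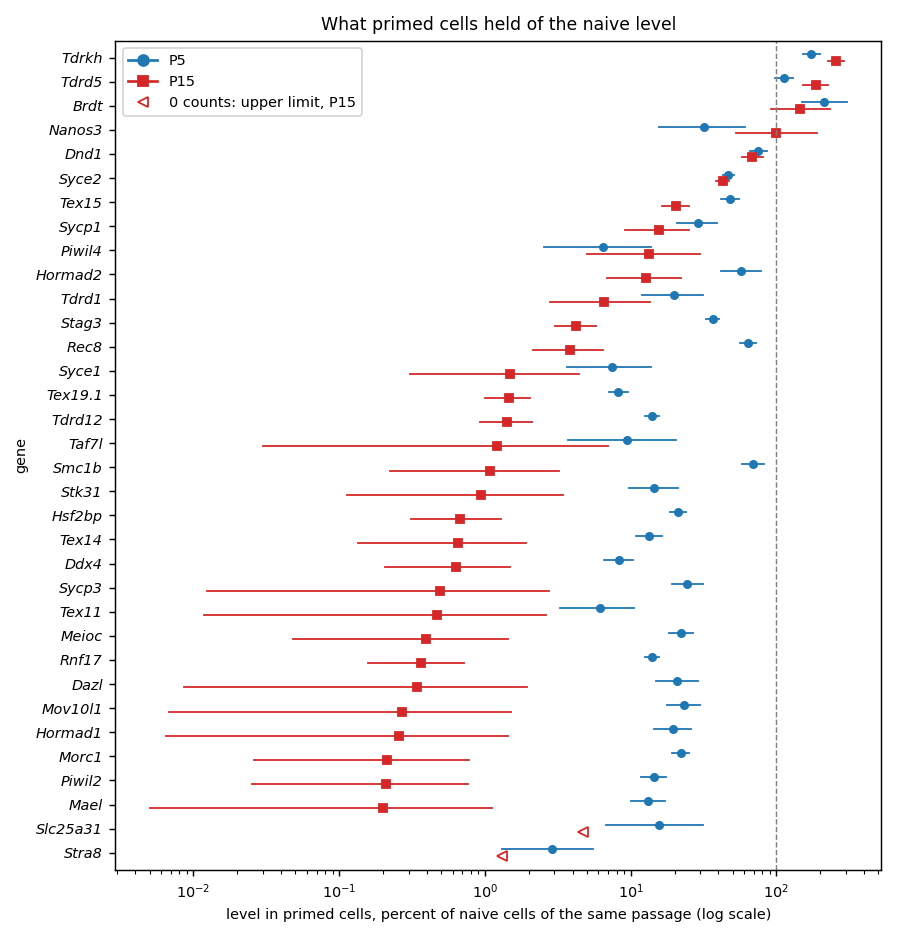
Level in primed cells as a percent of naïve cells of the same passage (log scale) for the 34 genes with enough counts, at P5 (blue circles) and P15 (red squares), with 95% counting intervals as lines and open triangles at the upper limit where both primed P15 libraries had 0 counts. The dashed line marks 100%. At P5 the genes spread from 2.89% (*Stra8*) to 211% (*Brdt*), and at P15 most of them lie under 2% while *Tdrkh* is at 256%.

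The promoters of genes that moved together in this way can be compared in RefSeq's table of promoter windows (build GRCm38.p6), which holds 300 bases for each gene, from 250 before to 50 after its start. It matched 33 of the 39 genes, and *Morc1*, *Piwil2*, *Dnd1*, *Rnf17*, *Tex11* and *Tex15* had no entry. The start in this table was furthest from the GENCODE start for *Nanos3* (8665 bases), *Tex101* (4625), *Meioc* (1869), *Hsf2bp* (1841) and *Stra8* (785). Where a gene had several windows, the first one was used. CpG dinucleotides were more frequent in them, with a median of 20 a window against 7 over all 27025 genes. The letters TCCCGC, the core that E2F6 is known to prefer, were found on either strand in 16 of 33 windows (48.5%) and in 20% of all windows. The letters CACGTG, an E-box of the kind bound by MAX and its partners and identical on both strands, were found in 14 windows (42.4%) and in 7.24% of all. Windows with both numbered 8 of 33 (24.2%), against 2.05% of all. A match to one motif can share an end base with a match to the other. Among windows of like CpG content (16 to 25 CpG, a range chosen after the counts were seen), 9 of 17 members and 37.9% of all 4512 windows held TCCCGC, and 8 of 17 members and 11% of all held CACGTG. Of the 24 windows of genes called lower at P15, 14 (58.3%) held TCCCGC and 11 (45.8%) CACGTG, and 6 held neither. Of the 4 windows of genes tested and not called lower (*Brdt*, *Nanos3*, *Tdrd5* and *Tdrkh*), 1 held TCCCGC and 1 CACGTG, and of the 5 windows of genes with too few counts 1 and 2 did, so these groups are too small to compare. A match is a description of the letters in a window and not of a bound site.

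**Figure D3:**
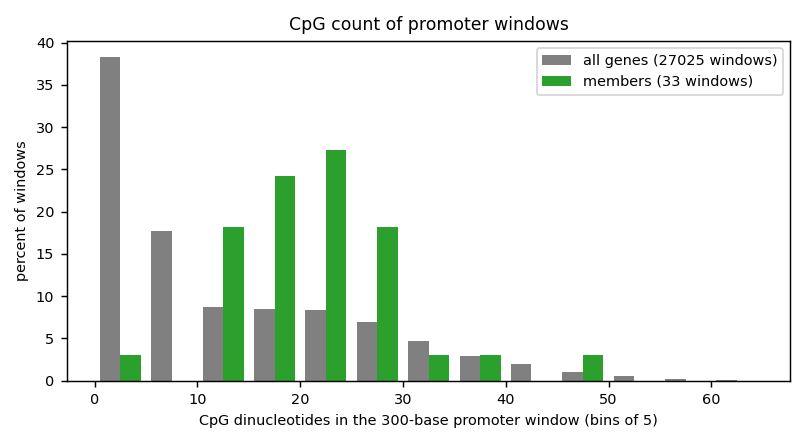
Share of promoter windows (y axis, percent) by the number of CpG dinucleotides in 300 bases (x axis, bins of 5) for all 27025 genes (grey) and for the 33 germline and meiotic genes with a window (green). The windows of all genes pile up at few CpG, with a median of 7, and those of the 33 lie around their median of 20.

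The stretches of 150 bases next upstream of the outermost start in GENCODE or RefSeq are shown for 5 genes that were lower in primed cells at both passages, and for *Tdrkh* and *Brdt*, which were called higher at P15 and at P5, with and without matches in both kinds, to let the letters be read beside the values that follow. Each is given 5′ to 3′ on the gene's own strand in GRCm38.p6, with matches to TCCCGC on either strand (GCGGGA on the strand shown) and to CACGTG in capitals. *Sycp3* is at chr10:88459419-88459568 (plus strand), *Mael* at chr1:166238748-166238897 (minus strand), *Tex19.1* at chr11:121145993-121146142 (plus strand), *Slc25a31* at chr3:40708705-40708854 (plus strand), *Dazl* at chr17:50293637-50293786 (minus strand), *Tdrkh* at chr3:94413094-94413243 (plus strand) and *Brdt* at chr5:107331009-107331158 (plus strand).
Sycp3: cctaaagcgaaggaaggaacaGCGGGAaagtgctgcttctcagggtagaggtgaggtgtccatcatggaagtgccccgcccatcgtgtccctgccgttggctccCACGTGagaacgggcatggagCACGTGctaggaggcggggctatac
Mael: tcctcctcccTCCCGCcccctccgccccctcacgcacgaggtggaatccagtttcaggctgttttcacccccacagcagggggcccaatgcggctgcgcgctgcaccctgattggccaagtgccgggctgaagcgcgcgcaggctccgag
Tex19.1: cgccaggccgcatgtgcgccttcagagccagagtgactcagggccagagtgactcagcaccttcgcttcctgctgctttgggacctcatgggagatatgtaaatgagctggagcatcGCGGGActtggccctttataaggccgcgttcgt
Slc25a31: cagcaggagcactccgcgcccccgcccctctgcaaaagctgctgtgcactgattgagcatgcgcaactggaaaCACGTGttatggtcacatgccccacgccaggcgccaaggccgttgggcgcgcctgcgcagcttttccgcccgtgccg
Dazl: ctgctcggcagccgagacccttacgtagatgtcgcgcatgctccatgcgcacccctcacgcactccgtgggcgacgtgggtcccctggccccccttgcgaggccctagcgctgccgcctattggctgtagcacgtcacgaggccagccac
Tdrkh: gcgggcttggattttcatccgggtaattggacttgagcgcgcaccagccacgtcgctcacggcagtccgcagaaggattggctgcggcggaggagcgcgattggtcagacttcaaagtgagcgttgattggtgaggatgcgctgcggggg
Brdt: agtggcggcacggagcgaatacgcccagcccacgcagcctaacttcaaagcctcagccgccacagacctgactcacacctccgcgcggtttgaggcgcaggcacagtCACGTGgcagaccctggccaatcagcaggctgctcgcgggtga
The stretch of *Sycp3* holds 1 match to the first motif and 2 to the second, those of *Mael* and *Tex19.1* hold 1 match to the first, those of *Slc25a31* and *Brdt* hold 1 match to the second, and those of *Dazl* and *Tdrkh* hold neither. The shown stretches were chosen after their letters were seen. Stretches of at most 150 bases could be cut for 24 genes. Those of *Hsf2bp*, *Meioc*, *Nanos3* and *Tex101* lie inside the gene's GENCODE bounds, so they are not upstream of its outermost start. Of the 16 that were called lower at P15, 7 held a match to either motif and 9 held none. The 9 were *Dazl*, *Ddx4*, *Hormad2*, *Hsf2bp*, *Meioc*, *Mov10l1*, *Rec8*, *Syce1* and *Tex14*. Of these 9, only *Dazl*, *Hormad2* and *Syce1* held no match in their 300-base window either. A match was found in 1 of the 3 stretches of genes tested and not called lower and in 2 of the 5 of genes with too few counts.

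Among the germ cell RNA regulators and meiotic entry genes, 5 of 7 were called lower at both passages. *Ddx4* (ENSMUSG00000021758, minus strand of chromosome 13, bases 112598333 to 112652475 in GENCODE M21 on GRCm38), the germ cell RNA helicase also known as vasa, was at 27.1 and 25.7 CPM in naïve and 2.24 and 2.16 CPM in primed cells at P5. At P15 it was at 21.9 and 22.8 CPM in naïve cells and had 4 and 1 counts in the primed libraries. Primed cells thus held 8.34% (6.60% to 10.4%) of the naïve level at P5 and 0.637% (0.206% to 1.49%) at P15, with adjusted p = 1.9e-19 and 2.67e-22, and at P15 they lay below the 1.53 CPM of MEFs. *Dazl*, an RNA-binding protein that licenses germ cells for gametogenesis, was at 6.61 and 4.90 CPM in naïve and 1.09 and 1.33 CPM in primed cells at P5, and at 8.54 and 8.12 CPM in naïve cells at P15 with 0 and 1 counts in the primed libraries. Its primed level was 20.95% and then 0.343% (0.00865% to 1.93%) of the naïve one. *Stra8*, which is induced by retinoic acid when germ cells enter meiosis, was the lowest of the 34 at P5 relative to naïve cells. It was at 8.25 and 8.06 CPM in naïve and 0.348 and 0.111 CPM in primed cells at P5, where primed cells held 2.89% (1.31% to 5.56%) of the naïve level. At P15 *Stra8* was at 8.32 and 7.93 CPM in naïve cells and had 0 counts in both primed libraries, which is at least 94.7-fold lower when 3 counts over the group are allowed. Both primed libraries lay below both naïve libraries for each of these genes.

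*Meioc*, which is needed to maintain the meiotic programme, was at 16.7 and 17.1 CPM in naïve and 4.03 and 3.44 CPM in primed cells at P5, and at 14.95 and 13.9 CPM in naïve cells at P15 with 2 and 0 counts in primed ones. *Stk31*, a germ cell kinase with a Tudor domain, was at 4.67 and 6.48 CPM in naïve and 0.845 and 0.777 CPM in primed cells at P5, and at 5.38 and 6.65 CPM in naïve cells at P15 with 1 and 1 counts in primed ones. Primed cells held 22.2% of the naïve *Meioc* level and 14.6% of that of *Stk31* at P5, and 0.396% and 0.942% at P15, and the groups did not overlap. The remaining pair was not called. *Dnd1*, an RNA-binding partner of the NANOS proteins, was at 13.3 and 14.2 CPM in naïve and 9.89 and 10.8 CPM in primed cells at P5 and at 11.6 and 10.9 CPM (naïve) and 7.52 and 7.84 CPM (primed) at P15. Its difference stayed under 2-fold, with log2 fold changes of -0.38 ± 0.12 and -0.56 ± 0.16 and adjusted p = 0.00562 and 0.00223. Here and below, the value after ± is the size of the log2 fold change divided by the square root of the test's F statistic. It is an approximate error and no fitted standard error, and where a group has few counts the counting error can be larger. *Nanos3*, which protects primordial germ cells from death, had 4 to 30 counts a library and differed by -1.59 ± 0.55 on the log2 scale at P5, with adjusted p = 0.0116, and by -0.01 ± 0.52 at P15, with adjusted p = 0.987.

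Of the 6 genes of the synaptonemal complex, the protein ladder that joins paired chromosomes, 4 had enough counts and all 4 were called lower at both passages, to very different extents. *Sycp3* (ENSMUSG00000020059, plus strand of chromosome 10, bases 88459569 to 88473236), a component of the lateral elements, was at 10.1 and 7.82 CPM in naïve and 1.79 and 2.66 CPM in primed cells at P5. At P15 it was at 6.19 and 5.50 CPM in naïve cells and had 1 and 0 counts in primed ones, so that primed cells went from 24.5% (19.11% to 31.2%) to 0.491% (0.0123% to 2.77%) of the naïve level. Its exons share 52.2% of their bases with *Chpt1* on the other strand, and the strand setting of the counting is not given in the sources used here. *Chpt1* had 277 and 374 counts in the 2 primed libraries at P15 in which *Sycp3* had 1 and 0. *Syce1*, a central element protein, was at 4.53 and 3.17 CPM in naïve and 0.248 and 0.333 CPM in primed cells at P5, and at 5.30 and 6.14 CPM in naïve cells at P15 with 2 and 1 counts in primed ones.

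*Sycp1*, the transverse filament, kept more. It was at 4.13 and 5.49 CPM in naïve and 1.34 and 1.44 CPM in primed cells at P5, and at 3.31 and 3.97 CPM (naïve) and 0.516 and 0.625 CPM (primed) at P15, which gave -1.75 ± 0.26 on the log2 scale at P5 with adjusted p = 5.97e-07, and -2.67 ± 0.37 at P15 with adjusted p = 9.93e-08. *Syce2* (ENSMUSG00000003824), another central element protein, was among the most abundant members and kept most. Its level was 42.7 and 42.4 CPM in naïve and 19.08 and 20.7 CPM in primed cells at P5, and 40.7 and 43.5 CPM (naïve) and 18.8 and 17.3 CPM (primed) at P15, against 4.72 CPM in MEFs. Primed cells held 46.7% (42.9% to 50.9%) of the naïve *Syce2* level at P5 and 42.8% (38.8% to 47.1%) at P15, and the change from P5 to P15 within primed cells was -0.17 ± 0.10 on the log2 scale (adjusted p = 0.149). With scaling by library size alone, its log2 fold change at P5 was -0.86, under the 2-fold limit. *Sycp2* and *Tex12* had at most 9 counts in any naïve or primed library, and *Sycp2* had 41 in MEFs.

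The 8 genes of the chromosome axis, cohesin and crossover were all measured, and 5 were called lower at P5 and all 8 at P15. Among the genes of meiotic cohesin subunits, *Rec8* and *Smc1b* were not called at P5 and *Stag3* was, and all were called at P15. *Rec8* (ENSMUSG00000002324, plus strand of chromosome 14, bases 55618037 to 55625395), the meiotic kleisin, was at 16.2 and 16.4 CPM in naïve and 10.3 and 10.5 CPM in primed cells at P5, and at 11.05 and 11.3 CPM (naïve) and 0.230 and 0.625 CPM (primed) at P15. *Smc1b*, the meiotic SMC subunit, was at 8.95 and 8.56 CPM in naïve and 5.71 and 6.43 CPM in primed cells at P5, and at 9.06 and 6.91 CPM in naïve cells at P15 with 1 and 2 counts in primed ones. *Stag3*, the meiotic STAG subunit, was at 32.02 and 31.1 CPM in naïve and 11.8 and 11.2 CPM in primed cells at P5, and at 29.3 and 27.4 CPM (naïve) and 0.861 and 1.53 CPM (primed) at P15, against 3.27 CPM in MEFs. Primed cells at P5 thus held 63.8% (56.2% to 72.3%) of the naïve *Rec8* level, 69.2% (58.3% to 81.9%) of that of *Smc1b* and 36.5% (32.7% to 40.7%) of that of *Stag3*. At P15 they held 3.84% (2.12% to 6.42%), 1.08% (0.222% to 3.20%) and 4.24% (3.03% to 5.78%). At P5 the log2 fold changes were -0.62 ± 0.11 for *Rec8* (adjusted p = 1.76e-05) and -0.50 ± 0.15 for *Smc1b* (adjusted p = 0.0043), both under 2-fold, although the 2 primed libraries lay below the 2 naïve ones. The change of the difference from P5 to P15, tested as the interaction of state and passage in all 8 libraries, was -4.06 ± 0.31 for *Rec8* (adjusted p = 5.72e-12), -5.92 ± 0.48 for *Smc1b* (adjusted p = 1.56e-11) and -3.13 ± 0.22 for *Stag3* (adjusted p = 1.01e-12). With 1 and 2 counts of *Smc1b* in primed cells at P15, only the direction of its value can be read.

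**Figure D4:**
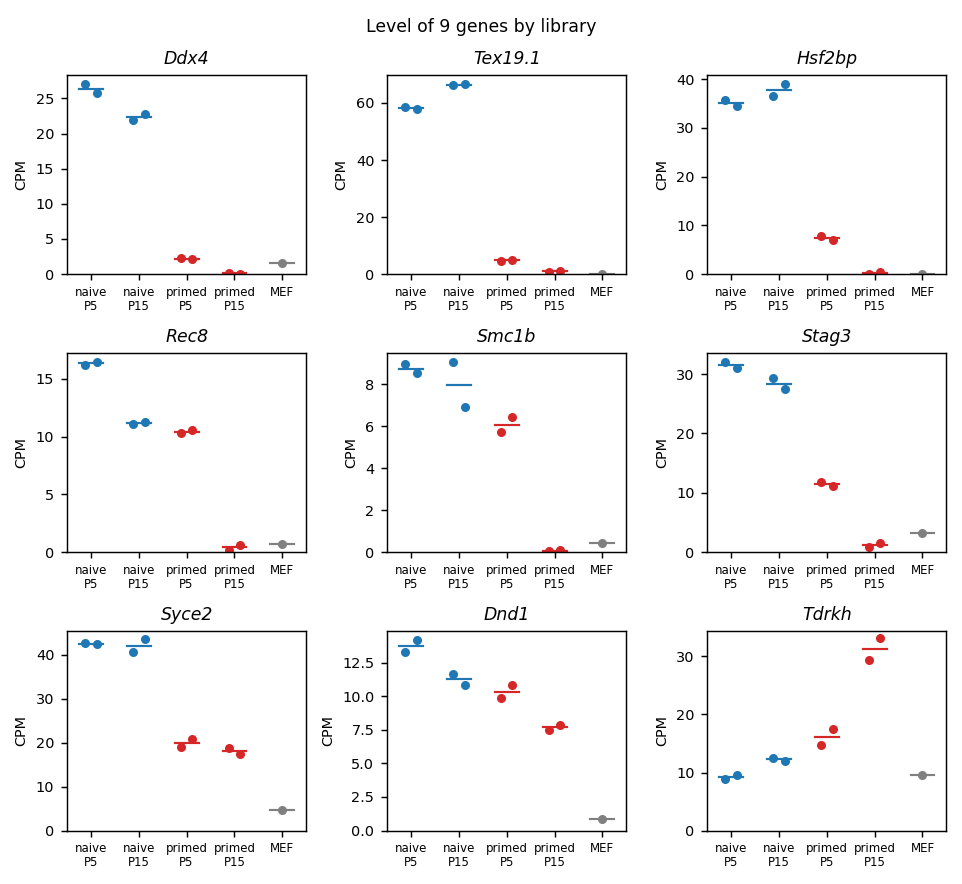
Level in CPM (y axes, each from 0) of 9 genes in naïve (blue), primed (red) and MEF (grey) libraries, where each point is 1 library and each line the group's mean. *Ddx4*, *Tex19.1* and *Hsf2bp* were already low in primed cells at P5, *Rec8* and *Smc1b* were at 63.8% and 69.2% of their naïve level at P5 and near 0 at P15, *Stag3* lay between, *Syce2* and *Dnd1* remained at P15 and *Tdrkh* was higher in primed cells.

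The HORMA-domain proteins HORMAD1 and HORMAD2 coat unpaired chromosome axes. *Hormad1* was at 7.21 and 8.41 CPM in naïve and 1.19 and 1.89 CPM in primed cells at P5, and at 11.9 and 10.4 CPM in naïve cells at P15 with 0 and 1 counts in primed ones. *Hormad2* was at 3.23 and 2.72 CPM in naïve and 1.84 and 1.55 CPM in primed cells at P5, and at 3.46 and 3.26 CPM (naïve) and 0.459 and 0.398 CPM (primed) at P15. *Hormad2* was not called at P5 (log2 fold change -0.77 ± 0.28, adjusted p = 0.014), where primed cells held 57.2% (41.7% to 78.1%) of its naïve level against 19.5% (14.4% to 25.8%) for *Hormad1*, and it was called at P15, at 12.8% (6.88% to 22.1%). *Hsf2bp*, which helps to load recombinases with BRCA2 in meiosis, was at 35.7 and 34.6 CPM in naïve and 7.85 and 6.93 CPM in primed cells at P5, and at 36.5 and 39.01 CPM in naïve cells at P15 with 1 and 8 counts in primed ones. *Tex11*, an X-linked crossover gene, was at 5.82 and 6.18 CPM in naïve and 0.348 and 0.388 CPM in primed cells at P5, and at 6.63 and 5.69 CPM in naïve cells at P15 with 1 and 0 counts in primed ones. Primed cells at P15 held 0.679% (0.310% to 1.29%) of the naïve *Hsf2bp* level and 0.466% (0.0117% to 2.63%) of that of *Tex11*. *Tex15*, which acts in meiotic repair and in transposon silencing, was at 15.8 and 15.3 CPM in naïve and 7.70 and 7.27 CPM in primed cells at P5, and at 16.6 and 15.3 CPM (naïve) and 3.27 and 3.24 CPM (primed) at P15, against 3.96 CPM in MEFs. Its log2 fold change at P5, -1.02 ± 0.12, was at the 2-fold limit, and it was -0.98 without the primed P5 replicate 2 and -0.82 with scaling by library size alone.

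The 13 genes of the piRNA pathway and transposon silencing held both the most abundant germline transcripts of naïve cells and the only member called higher at P15. Of them 11 had enough counts, and 9 were called lower at both passages. *Tex19.1* (ENSMUSG00000039329, plus strand of chromosome 11, bases 121146143 to 121148319), which restrains retrotransposons in germ cells and placenta, had the highest level per length, at 31.1 CPM per kb of exon in naïve cells at P5. It was followed by *Syce2* at 21.6, *Tdrd12* at 14.7, *Rnf17* at 10.8, *Hsf2bp* at 9.79 and *Ddx4* at 8.76 CPM per kb, and 29 of the 39 genes were at 1 CPM per kb or more. Unscaled for length, *Tex19.1* was at 58.6 and 57.9 CPM in naïve and 4.72 and 4.88 CPM in primed cells at P5, and at 66.2 and 66.6 CPM (naïve) and 0.918 and 1.02 CPM (primed) at P15. *Rnf17*, a Tudor-domain protein of germ granules, was at 70.1 and 65.1 CPM in naïve and 9.89 and 8.93 CPM in primed cells at P5, and at 59.7 and 65.1 CPM (naïve) and 0.287 and 0.170 CPM (primed) at P15. *Tdrd12*, a Tudor-domain helicase needed for secondary piRNAs, was at 62.01 and 65.2 CPM in naïve and 8.25 and 9.71 CPM in primed cells at P5, and at 52.2 and 52.00 CPM (naïve) and 0.746 and 0.738 CPM (primed) at P15. These 3 were held by primed cells at 8.24% (7.05% to 9.58%), 13.96% (12.5% to 15.6%) and 14.1% (12.5% to 15.7%) of the naïve level at P5, and at 1.46% (1.01% to 2.05%), 0.365% (0.157% to 0.721%) and 1.42% (0.928% to 2.10%) at P15. MEFs had 0 counts of *Tex19.1* and *Tdrd12* and 6 of *Rnf17*.

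The PIWI proteins bind piRNAs themselves. *Piwil2* was at 22.97 and 22.6 CPM in naïve and 3.28 and 3.27 CPM in primed cells at P5, and at 25.9 and 28.3 CPM in naïve cells at P15 with 0 and 2 counts in primed ones. *Piwil4*, the nuclear PIWI protein, was at 2.78 and 2.87 CPM in naïve and 0.0497 and 0.333 CPM in primed cells at P5, and at 1.77 and 1.28 CPM in naïve cells at P15 with 5 and 2 counts in primed ones. Unlike *Piwil2*, which went from 14.4% (11.8% to 17.3%) to 0.210% (0.0254% to 0.761%) of the naïve level, *Piwil4* was at 6.49% (2.55% to 13.8%) and 13.3% (5.04% to 29.7%), with intervals that overlap. *Mael*, a germ granule protein needed for transposon silencing, was at 12.4 and 13.5 CPM in naïve and 1.69 and 1.72 CPM in primed cells at P5, and at 15.6 and 13.1 CPM in naïve cells at P15 with 0 and 1 counts in primed ones. *Mov10l1*, the helicase that starts piRNA processing, was at 8.603 and 8.61 CPM in naïve and 2.24 and 1.72 CPM in primed cells at P5, and at 10.5 and 10.7 CPM in naïve cells at P15 with 1 and 0 counts in primed ones. At P15 primed cells held 0.200% (0.00505% to 1.12%) of the naïve *Mael* level and 0.269% (0.00679% to 1.51%) of that of *Mov10l1*. *Morc1*, an ATPase that represses transposons in male germ cells, was at 27.2 and 32.7 CPM in naïve and 6.26 and 6.99 CPM in primed cells at P5, and at 22.6 and 30.1 CPM in naïve cells at P15 with 0 and 2 counts in primed ones. *Tdrd1*, a scaffold of germ granules, was at 3.23 and 2.57 CPM in naïve and 0.447 and 0.721 CPM in primed cells at P5, and at 3.68 and 3.26 CPM in naïve cells at P15 with 1 and 7 counts in primed ones. In each of these genes both primed libraries lay below both naïve libraries at P5 and at P15.

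*Tdrkh* and *Tdrd5* were not lower in primed cells. *Tdrkh* (ENSMUSG00000041912, plus strand of chromosome 3, bases 94413273 to 94434668), a mitochondrial Tudor-domain partner of PIWI proteins, was at 8.85 and 9.60 CPM in naïve and 14.8 and 17.4 CPM in primed cells at P5, and at 12.5 and 11.96 CPM (naïve) and 29.4 and 33.2 CPM (primed) at P15. MEFs were at 9.57 CPM, below every primed library. The log2 fold change was 0.83 ± 0.12 at P5 (adjusted p = 5.95e-07), under 2-fold, and 1.34 ± 0.12 at P15 (adjusted p = 9.76e-13). Within primed cells it was higher at P15 than at P5 by 0.93 ± 0.10 (adjusted p = 8.77e-09), again under 2-fold, while the change of the difference between the states from P5 to P15 was 0.53 ± 0.17 (adjusted p = 0.0141). Its exons share 36.7% of their bases with *Oaz3* on the other strand, which had 0 to 6 counts in every library. *Tdrd5*, which acts in piRNA production from long precursors, was at 8.80 and 9.25 CPM in naïve and 10.04 and 10.4 CPM in primed cells at P5, and at 5.16 and 5.18 CPM (naïve) and 9.41 and 9.77 CPM (primed) at P15. On the log2 scale it differed by 0.21 ± 0.13 at P5, with adjusted p = 0.149, and by 0.88 ± 0.18 at P15, with adjusted p = 5.13e-05, and neither was called. From P5 to P15 the mean level of *Tdrd5* went from 9.03 to 5.17 CPM in naïve cells and from 10.2 to 9.59 CPM in primed cells. *Asz1* had at most 2 counts in a library and *Tdrd9* at most 7.

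Of the 5 other testis and germ cell genes, 3 were called lower at both passages. *Tex14*, which forms the bridges between germ cells, was at 20.1 and 19.3 CPM in naïve and 2.88 and 2.39 CPM in primed cells at P5, and at 13.8 and 12.5 CPM in naïve cells at P15 with 2 and 1 counts in primed ones. *Taf7l*, a testis variant of a TFIID subunit, was at 1.69 and 2.18 CPM in naïve and 0.248 and 0.111 CPM in primed cells at P5, and at 2.43 and 2.30 CPM in naïve cells at P15 with 1 and 0 counts in primed ones. *Slc25a31*, a germ cell ADP/ATP carrier, was at 1.34 and 1.68 CPM in naïve and 0.149 and 0.333 CPM in primed cells at P5, and at 2.58 and 2.05 CPM in naïve cells at P15, where both primed libraries had 0 counts. That is at least 26.8-fold lower when 3 counts over the group are allowed, and its call at P5 did not hold without the primed P5 replicate 1 (log2 fold change -2.13). *Brdt*, a bromodomain protein of spermatocytes, was low everywhere, at 1.04 and 1.43 CPM in naïve and 2.88 and 2.33 CPM in primed cells at P5 and at 0.958 and 1.15 CPM (naïve) and 1.49 and 1.59 CPM (primed) at P15. MEFs held 3.70 CPM, more than any naïve or primed library. Its difference at P5 was 1.10 ± 0.31 on the log2 scale, with adjusted p = 0.00219, and 0.53 ± 0.41 at P15, with adjusted p = 0.256. The call at P5 did not hold with DESeq2, without the low-count filter, or without naïve P5 replicate 1 (0.89), primed P5 replicate 1 (0.94) or primed P5 replicate 2 (1.25). *Tex101* had at most 9 counts in a library.

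With passage, germline genes were called lower in primed cells and none were called in naïve ones. In naïve cells at P15 against P5, edgeR called 0 of the 34 genes tested in either direction, where 0.414% of all 15683 genes were called higher and 0.721% lower. At an unadjusted p under 0.05, 7 were higher and 8 lower. The share of all genes at that limit was not taken, so these 2 counts cannot be set against it. DESeq2 called 0 as well, where it called 47 of all 27381 genes with counts higher and 88 lower. *Tdrd5* (log2 fold change -0.80 ± 0.16, adjusted p = 0.0035), *Tex14* (-0.59 ± 0.11, adjusted p = 0.00239), *Rec8* (-0.55 ± 0.11, adjusted p = 0.00484) and *Tdrd12* (-0.29 ± 0.06, adjusted p = 0.00569) passed the p-value limit alone, as 4 of 34 lower and 0 higher, against 5.01% and 4.21% of all genes. In primed cells at P15 against P5, 21 of 27 genes tested were called lower and 0 higher, against 8.43% and 3.18% of all 15957 genes. Many of the 27 passed the filter through their primed P5 libraries alone, so this count too describes the list and is no test of it. With 0 called higher by edgeR, 1 was higher at an unadjusted p under 0.05, again without the share of all genes. DESeq2 called 0 higher and 18 lower, where it called 375 of all 27661 genes with counts higher and 858 lower. Besides the 5 named above, *Piwil4*, *Slc25a31*, *Stra8*, *Syce1*, *Taf7l*, *Tdrd1* and *Tex11* had too few counts in primed cells to be tested. The 6 that were tested and not called were *Dnd1*, *Nanos3*, *Syce2*, *Tdrd5*, *Tdrkh* and *Brdt*. Over the same step the fibroblast markers rose in primed cells, with 12 of 24 called higher and 0 lower and a median log2 fold change of 0.98. Their mean summed level at P15 was 2.55 times that at P5 in primed cells and 1.71 times in naïve cells, where their median log2 fold change was 0.36. In primed cells at P15, *Dcn* (720 and 749 CPM), *Lum* (299 and 323 CPM) and *Mmp2* (484 and 462 CPM) lay above MEFs. MEFs were at 211, 148 and 412 CPM for these genes. The other fibroblast markers were lower in primed cells at P15 than in MEFs. The part of the fibroblast markers in the changes with passage was not tested.

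For most of these genes the difference between the states was larger at P15 than at P5. The interaction of state and passage was called in 23 of 34 genes, all of them towards a lower level at P15, where 4.80% of all 16926 genes were called in that direction and 2.36% in the other. Many of the 34 passed the filter through libraries other than primed P15, so this count is no test of the list. Of the genes tested, all 8 of the axis, cohesin and crossover were among the 23, as were 5 of 7 RNA regulators and meiotic entry genes. So were 7 of 11 piRNA genes, 2 of 4 other genes and 1 of 4 genes of the synaptonemal complex (*Sycp3*). These comparisons share libraries and do not stand as separate evidence. Where the primed P15 libraries have 3 counts or fewer, as in 16 of the 34 genes, the fitted size depends on the prior count of the fit, and the calls of *Stra8*, *Tex11* and *Slc25a31* did not hold with DESeq2, nor when single libraries were left out in turn, which ended them in 7, 7 and 5 of 8 cases.

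Other germline genes were taken as lists outside the 39. Of 12 genes of germ cell determination 7 were tested, and 5 were lower in primed cells at each passage with 0 higher, where 8.85% of all genes tested were called lower at P5 and 11.0% at P15. *Dppa3*, a maternal factor of early embryos and germ cells, differed by -2.35 ± 0.09 on the log2 scale at P5, with adjusted p = 2.16e-19, and by -4.80 ± 0.18 at P15, with adjusted p = 3.78e-23. *Tfap2c*, a primordial germ cell factor that naïve cells also use, differed by -1.56 ± 0.07 and -2.10 ± 0.09, and *Prdm14* by -2.91 ± 0.18 at P5. *Sohlh2*, a transcription factor of early gametes, was lower at P15 with adjusted p = 8.16e-17. Of 28 genes of meiotic recombination and pairing, 22 were tested at P5 and 15 at P15, and 8 and 5 were lower with 0 higher, beside the same 8.85% and 11.0% of all genes. The 3 with the smallest adjusted p were *Mnd1* (-1.01 ± 0.10), *Mei4* (-2.07 ± 0.30) and *Rec114* (-1.26 ± 0.26) at P5 and *Dmc1* (-3.29 ± 0.28), *Rec114* (-3.91 ± 0.41) and *Mei4* (-2.76 ± 0.32) at P15. The mean level of *Mnd1* was 24.1 CPM in naïve and 11.7 CPM in primed cells at P5, and 20.3 and 17.8 CPM at P15. Of the 15 tested at P15, 10 were not called, and the median log2 fold change was -0.36. Of 12 further piRNA pathway genes, 10 and 9 were tested, and 4 and 6 were lower and 2 and 1 higher, where 13.5% and 12.2% of all genes were called higher. *Tdrd7*, a Tudor-domain protein, was higher at both passages (1.42 ± 0.09 and 2.08 ± 0.11), and *Exd1*, named after its value was seen, was higher at P5 (1.21 ± 0.22). *Pnldc1*, the piRNA trimming enzyme, was lower at both (-2.01 ± 0.16 and -3.25 ± 0.24), as was *Pld6* at P5 (-1.01 ± 0.18) and *Gpat2* at P15 (-6.30 ± 0.46). With 2 and 1 counts of *Gpat2* in the primed P15 libraries, only the direction of its value can be read.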

How the data were processed

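The authors sequenced poly(A) RNA, trimmed reads with Cutadapt, aligned them to mm10 with HISAT2 and deposited raw counts per gene made with featureCounts. Its strand setting and treatment of reads with several alignments are not given in the sources used here. Groups and replicates were read from the sample titles. The 92 spike-in rows held 0 counts and were left out, and 67 of the 54232 gene IDs had no name in GENCODE M21, the source of names, coordinates and exon lengths; they held 0.00419% to 0.00527% of a library's counts. CPM used library sizes scaled by TMM over the 9 libraries.

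Each comparison was fitted on its 4 libraries (the interaction on 8) with edgeR 4.0.16 in R 4.3.3 (quasi-likelihood test, two-sided, TMM, at least 10 counts in at least 2 libraries, Benjamini-Hochberg adjustment over all genes tested). In these fits the common coefficient of variation between libraries of a group was low, from 3.26% (primed against naïve at P5) to 4.79% (primed against naïve at P15). The MEF library entered no test. Folds against 0 counts are bounds at 3 counts over the group. The code was tested on simulated counts. The members, lists and tests were chosen with earlier results of these data known. Values in every library are given for members called at P5 or P15, and of other lists the 3 called genes with the smallest adjusted p at each passage are named. Alternatives were DESeq2 1.42.0 (its size factors and its Wald test), library size alone, no low-count filter, no fold limit, all 8 libraries in a fit, a replicate block, and each replicate left out.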

Additional observations from a re-analysis of the deposited data

Results flagged for a closer look

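In 23 of the 34 genes tested, the difference between primed and naïve cells was itself different between the passages, by the interaction of state and passage in edgeR's quasi-likelihood test over 8 libraries (adjusted p under 0.01 and at least 2-fold). Many of the 34 passed the filter through libraries other than primed P15, so this count is no test of the list. The value is the log2 fold change at P15 minus that at P5, and every one was negative. Among the RNA regulators and meiotic entry genes it was -3.67 for *Ddx4*, -5.65 for *Dazl*, -5.12 for *Stra8*, -5.67 for *Meioc* and -3.81 for *Stk31*. In the synaptonemal complex it was -5.36 for *Sycp3*. Among the axis, cohesin and crossover genes it was -5.96 for *Hormad1*, -2.17 for *Hormad2*, -3.13 for *Stag3*, -5.92 for *Smc1b*, -4.06 for *Rec8*, -3.45 for *Tex11*, -1.27 for *Tex15* and -4.94 for *Hsf2bp*. Among the piRNA genes it was -5.76 for *Mael*, -3.32 for *Tdrd12*, -5.95 for *Piwil2*, -6.14 for *Mov10l1*, -5.24 for *Rnf17*, -6.54 for *Morc1* and -2.51 for *Tex19.1*. Of the other genes, *Tex14* was at -4.28 and *Slc25a31* at -5.73. Where the primed P15 libraries hold 3 counts or fewer, the size depends on the prior count of the fit and only the direction can be read.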

How the results depend on the processing

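The number of genes called lower kept within 1.5 times of its value under every alternative that kept the fold limit, with 26 at P5, 29 at P15, 21 in primed cells with passage and 23 in the interaction. With each replicate left out in turn, where the lone library is assumed to vary like the others, 25 to 27 were lower at P5, 29 at P15, 20 in primed cells with passage and 20 to 22 in the interaction. Counts of genes called higher are small and moved. At P5 the 1 gene (*Brdt*) became 0 without the low-count filter and with DESeq2, 0 to 1 with a replicate left out, and 2 with library size alone or with the p-value limit alone. At P15 the p-value limit alone gave 2. In primed cells with passage it gave 1 higher, and leaving out a replicate gave 0 to 1 (1 without primed P5 replicate 2 or primed P15 replicate 1). In naïve cells it gave 4 lower. With library size alone the summed level of the 39 genes was 553 CPM in naïve and 180.3 CPM in primed cells at P5, 523 CPM in naïve cells at P15 and 30.8 CPM in MEFs. With that scaling the median log2 fold change of all genes was 0.21 at P5 and 0.10 at P15, against 0.0078 and -0.0039 with TMM. The share of calls that were higher at P5 was 72.5% with that scaling and 60.4% with TMM. The calls of *Syce2* and *Tex15* at P5 fell under 2-fold with it. Among the results and alternatives run, no direction was reversed.

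Samples with the same replicate number shared little of their deviation, with correlations of -0.0727 at P5 and -0.106 at P15 between the states. Between the passages the correlations were 0.0856 in naïve and 0.0911 in primed cells. With the replicate block, 26 genes were lower at P5, 29 at P15, 21 in primed cells with passage and 20 in the interaction, where *Stra8*, *Tex11* and *Slc25a31* were no longer called. With crossed numbers, added after seeing the data, 27, 29, 20 and 22 were lower. The call of *Sycp1* in primed cells with passage did not hold with DESeq2, with crossed numbers or with any 1 library left out. Depth limits the lowest values, since these libraries cannot tell genes at 0 to 3 counts apart. Of the values of single called genes, 770 of 785 kept their call and direction with an alternative setting and 468 of 496 with a library left out, and the rest kept their direction. The causes of these changes were not tested.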

Other observations

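Of 25 genes known to act on germline genes, namely DNA methyltransferases, TET enzymes and members of the Polycomb complex with E2F6 and related factors, all 25 were tested, and primed cells had 2 of them called higher and 4 called lower at P5, and 1 and 4 at P15. Of all genes tested, 13.5% were called higher and 8.85% lower at P5, and 12.2% and 11.0% at P15. *Dnmt3l*, a cofactor of DNA methylation, differed by -2.72 ± 0.05 on the log2 scale at P5, with adjusted p = 1.39e-27, and by -8.16 ± 0.14 at P15, with adjusted p = 3.45e-34. It had 23 and 7 counts in the primed P15 libraries, so the size at P15 is less certain than the value after ± says. *Tet1*, which oxidises methylated cytosine, differed by -2.28 ± 0.04 and -3.05 ± 0.08. *Tet2* differed by -2.09 ± 0.09 at P15 (adjusted p = 8.61e-21). *Tet3* was higher by 1.75 ± 0.08 at P5 (adjusted p = 2.61e-18) and by 1.29 ± 0.11 at P15. Whether these differences bear on the germline genes was not tested.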
